A study of Mus musculus with 10 samples.

Results

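The Hox genes are the protein-coding genes named Hoxa, Hoxb, Hoxc or Hoxd followed by a number. Members were taken by symbol alone, but the set was chosen with earlier results of these data known. The mouse annotation holds 39 Hox genes, and 38 were among the 26401 genes of the count table. Hoxc11 was not analysed here. Poly(A) RNA was sequenced in 10 cultures of immortalized embryonic fibroblasts, connective tissue cells grown from embryos and kept in culture. All 10 carried the mitochondrial DNA mutation m.5024C>T, are labelled C57Bl/6N and grew untreated in high-glucose DMEM with serum and uridine, so no culture without the mutation served as control. In 5 cultures the share of mutant mitochondrial genomes was low and in 5 it was high. Each culture carries its own clone number and gave 1 library, and the libraries are called low 1 to low 5 and high 1 to high 5 after their replicate numbers. The part of the embryo each clone came from is not stated in the labels. The p-values measure the spread between these clones. The libraries held between 17318372 and 28208576 counts on genes. Low 2 and low 3 stood apart in Gm42418, a gene that resembles ribosomal RNA, with 40900 and 8020 CPM against at most 1620 CPM in the other 8. CPM is the count of a gene scaled to library size, with TMM factors between libraries.

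Hox genes encode homeodomain transcription factors that give cells an address along the body. They lie in 4 clusters named A, B, C and D, and members with the same number, called paralogs, descend from the same ancestral gene. Genes of low number are switched on early and far forward in the embryo, and genes of high number later, towards the tail and the tip of the limbs. Cultured fibroblasts are known to keep much of the Hox pattern of the body site they came from.

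Clusters A and D were on in all 10 libraries, with their highest levels among the high numbers. The C cluster was silent in all 10, and the B cluster was on in every clone but low in 4 of the 5 high clones. In the plot of the Hox code by cluster and paralog number each clone has its own row. The number of Hox genes at 1 CPM or more was 24, 23, 24, 23 and 24 in low 1 to low 5 and 24, 24, 22, 21 and 25 in high 1 to high 5, so the groups overlapped. At that level 20 Hox genes were on in every library, 13 in none, and the rest in some, among them Hoxa4, Hoxa13, Hoxb13 and Hoxd12. All Hox genes together took between 0.0453% and 0.0984% of the counts of a library.

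**Figure D1:**
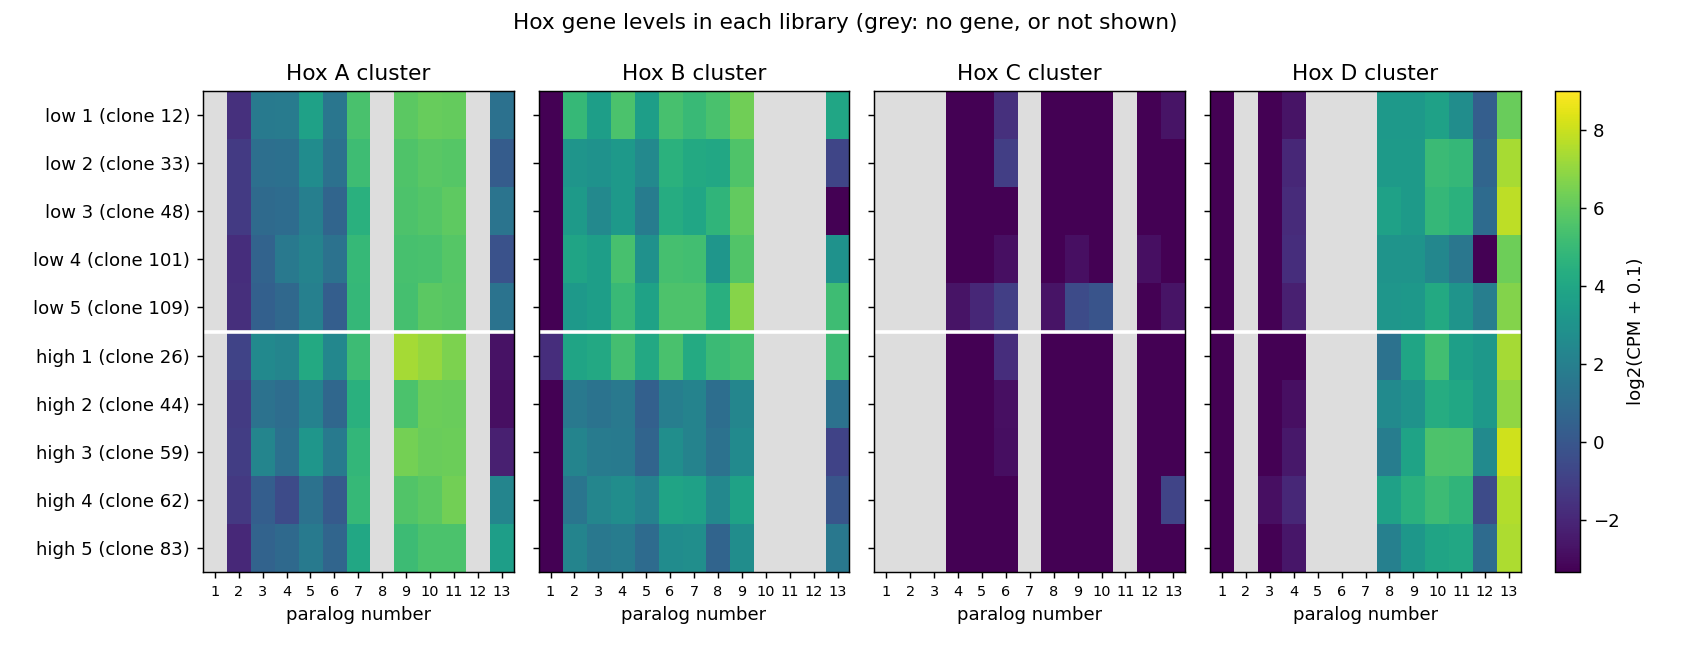
Level of each Hox gene in each library as log2(CPM + 0.1), in 1 panel per cluster with the paralog number along the x axis and the 10 libraries as rows, low above the white line and high below it. Grey cells have no gene, or a gene not analysed or not shown here. Cluster C is dark in all rows, and cluster B is dim in high 2 to high 5 but not in high 1.

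Promoter windows are shown for a few members so that the results can be read beside them. A window runs from 250 bases before to 50 bases after the annotated start (RefSeq, GRCm38.p6), and 22 of the 39 Hox genes matched the table, some with 2 start sites. The 5 sequences printed are those of the paralogs Hoxd13, high in all clones, and Hoxa13, nearly silent in 3, of Hoxb4 and Hoxb8 from the cluster that separates the clones, and of Hoxc4 from the silent cluster. They are written 5′ to 3′ on the strand of the gene, with each CpG dinucleotide in capitals.
Hoxd13, chr2:74667975-74668274, plus strand: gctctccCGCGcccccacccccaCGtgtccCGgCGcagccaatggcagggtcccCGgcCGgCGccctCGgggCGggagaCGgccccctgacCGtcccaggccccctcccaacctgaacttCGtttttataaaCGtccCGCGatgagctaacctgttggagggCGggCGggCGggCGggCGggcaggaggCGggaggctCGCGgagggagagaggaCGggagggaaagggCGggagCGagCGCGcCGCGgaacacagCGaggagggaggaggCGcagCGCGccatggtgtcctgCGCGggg
Hoxa13, chr6:52260831-52261130, minus strand: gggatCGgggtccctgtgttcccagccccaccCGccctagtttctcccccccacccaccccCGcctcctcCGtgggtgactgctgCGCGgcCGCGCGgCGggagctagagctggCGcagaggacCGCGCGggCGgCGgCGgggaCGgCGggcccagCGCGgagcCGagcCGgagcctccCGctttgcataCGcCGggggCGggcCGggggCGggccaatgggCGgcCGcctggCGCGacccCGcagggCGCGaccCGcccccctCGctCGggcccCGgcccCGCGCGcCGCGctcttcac
Hoxb4, chr11:96318017-96318316, plus strand: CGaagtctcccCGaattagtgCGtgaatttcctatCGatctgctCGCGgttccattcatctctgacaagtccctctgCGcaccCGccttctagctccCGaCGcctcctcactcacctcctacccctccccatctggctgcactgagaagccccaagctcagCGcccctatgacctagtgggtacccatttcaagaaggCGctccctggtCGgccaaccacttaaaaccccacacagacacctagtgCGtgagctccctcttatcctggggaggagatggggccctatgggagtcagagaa
Hoxb8, chr11:96281655-96281954, plus strand: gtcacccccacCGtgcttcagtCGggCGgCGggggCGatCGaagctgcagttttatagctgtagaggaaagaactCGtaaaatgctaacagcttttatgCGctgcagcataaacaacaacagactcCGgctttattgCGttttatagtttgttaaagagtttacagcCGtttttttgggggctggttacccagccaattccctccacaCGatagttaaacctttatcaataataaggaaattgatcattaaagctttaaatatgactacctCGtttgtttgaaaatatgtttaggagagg
Hoxc4, chr15:103034145-103034444, plus strand: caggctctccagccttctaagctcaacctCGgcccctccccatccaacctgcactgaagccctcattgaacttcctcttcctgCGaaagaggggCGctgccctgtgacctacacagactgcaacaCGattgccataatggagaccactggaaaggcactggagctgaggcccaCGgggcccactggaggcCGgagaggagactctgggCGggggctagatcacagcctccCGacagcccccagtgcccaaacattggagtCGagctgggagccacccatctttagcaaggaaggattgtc

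Hoxa13 holds 45 CpG in its 300 bases and Hoxd13 holds 37, against 14 in Hoxb4, 13 in Hoxb8 and 9 in Hoxc4. The median was 14.5 over the 24 Hox start windows and 7 over all 32841 windows of the same length in the table. CpG-rich starts were thus found both at Hoxd13, which was high in all clones, and at Hoxa13, which was nearly silent in 3. The TATA box letters TATAAA, searched on both strands, occur in 4 of the 24 Hox windows, among them those of Hoxd13 and Hoxb8, and in 13.6% of all windows. The CCAAT letters, searched the same way, occur in 15 of the 24 and in 37.4% of all. A Pbx-Hox site, TGATTNAT on either strand, occurs in 2 of the 24, at Hoxa2 and 1 of the Hoxd11 starts, and in 3.22% of all windows. The homeodomain core TTAATTA, also on either strand, occurs in 1 of the 24, at the other Hoxd11 start, and in 3.08% of all. No motif of these 4 contains another, and these are matches of letters only.

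The B cluster (chromosome 11, 96194316 to 96368256, GRCm38) held the only Hox gene that passed the test. Its summed level was 314, 138, 156, 224 and 328 CPM in low 1 to low 5, and 262, 27.4, 32.5, 65.6 and 37.0 CPM in high 1 to high 5. High 2 to high 5 therefore all lay below the lowest low clone, and high 1 lay among the low clones, as the bar chart of summed levels by cluster shows. For 7 of the 10 Hox B genes, Hoxb2, Hoxb3, Hoxb4, Hoxb6, Hoxb7, Hoxb8 and Hoxb9, high 2 to high 5 were each below every low clone. This division, which sets high 1 aside, was drawn after the values were seen, and its share over all tested genes was not computed. Hoxb9 was the 1 gene for which high 1 was also below every low clone. In bulk RNA, fewer cells that use a Hox gene and less of its RNA per cell cannot be told apart.

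**Figure D2:**
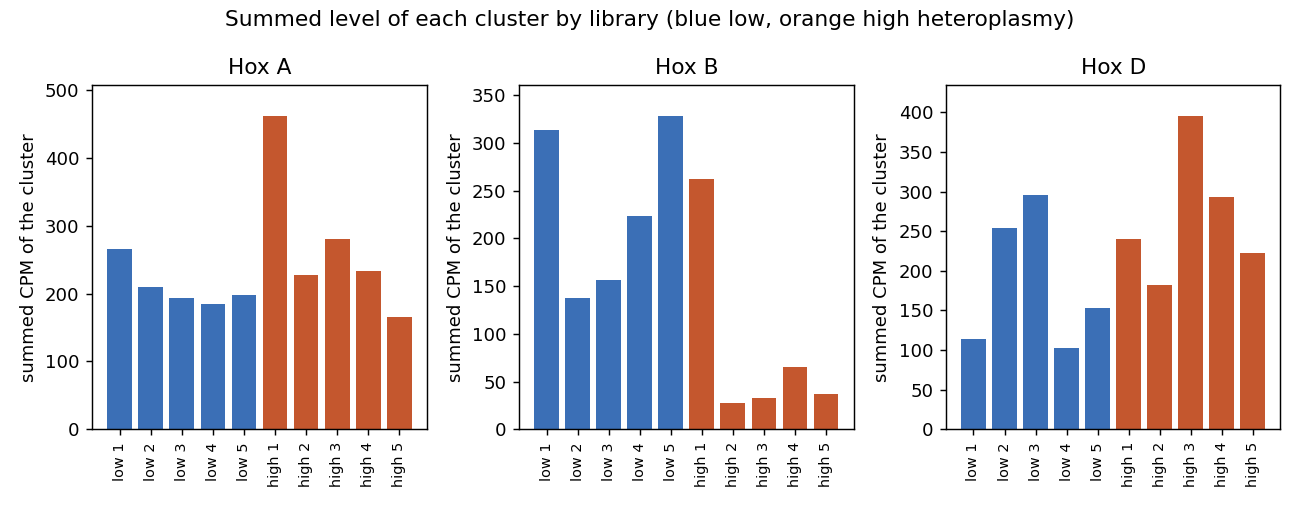
Summed CPM of the Hox A, Hox B and Hox D clusters (y axis, from 0) in each library (x axis), low in blue and high in orange. In the B panel high 2 to high 5 reach at most 65.6 CPM, and the other 6 libraries reach at least 138 CPM. Cluster C is left out, as its sum was at most 2.12 CPM.

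Hoxb9, which patterns the thoracic body wall and rib cage, was that gene. It stood at 79.0, 48.6, 65.4, 51.1 and 108 CPM in low 1 to low 5, and at 40.8, 4.99, 5.86, 13.8 and 6.59 CPM in high 1 to high 5. The 2 groups did not overlap, and high 1 lay close to the low clones. The mean level of Hoxb9 was 70.4 ± 24.2 CPM in the low and 14.4 ± 15.2 CPM in the high clones (SD, n = 5 in each), so it fell by 2.29 on the log2 scale with an SE of 0.58 (adjusted p = 0.0477 by edgeR's quasi-likelihood test with Benjamini-Hochberg adjustment). It was the only 1 of the 25 tested Hox genes that passed, where 4.86% of all 12964 tested genes passed, 2.87% as lower and 1.99% as higher. It was also the only tested Hox gene whose groups did not overlap, where 7.17% of all tested genes had groups apart and 4.17% had all high below all low values. The call lay at the threshold and held in 5 of 19 alternative fits. Without any 1 library other than high 1 the adjusted p was between 0.0695 and 0.0936, without low 2 and low 3 together it was 0.137, and without high 1 it was 0.00396. The log2 fold change stayed between -2.08 and -3.17 in all 19 alternative fits.

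Hoxb7 and Hoxb6, which act in the trunk, belong to the same cluster. Hoxb7 was at 33, 17.7, 15.4, 39.1 and 46.3 CPM in the low clones and at 18.4, 4.43, 4.43, 13 and 6.82 CPM in the high clones. Its log2 fold change of -1.69 (SE 0.46) did not pass in edgeR (adjusted p = 0.0608), but did in DESeq2 (0.00349) and limma-voom (0.0407). Hoxb6 was at 42.5, 23.3, 19.6, 41.5 and 47.4 CPM in the low and at 44.4, 3.74, 6.70, 14.4 and 6.19 CPM in the high clones. The difference in Hoxb6 did not pass (log2 fold change -1.21, SE 0.62, adjusted p = 0.285). In both genes the value of high 1 lay within the range of the low clones.

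Hoxb8, which is best known for its roles in the spinal cord and in blood progenitors, was at 43.5, 16.7, 26.9, 8.70 and 22.1 CPM in the low and at 34.2, 2.06, 2.42, 5.33 and 1.46 CPM in the high clones. This spanned 29.7-fold from the highest to the lowest clone, the widest of the Hox genes with at least 10 counts in each library. Hoxb2, which patterns the hindbrain, was at 30.0, 8.53, 10.4, 14.4 and 10.2 CPM in the low and at 14.5, 3.05, 4.65, 2.66 and 4.69 CPM in the high clones. Low 1 stood above the other low clones for both, and neither passed (log2 fold changes -1.38 and -1.32, adjusted p = 0.380 and 0.161).

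Hoxb4, which acts in the neck vertebrae and in blood stem cells, had 2 separate levels within the low group. It was at 45.9, 9.72, 9.62, 42.1 and 32.7 CPM in the low and at 40.1, 3.01, 3.14, 6.44 and 3.46 CPM in the high clones. Low 1, low 4, low 5 and high 1 were at 32.7 CPM or more and the other 6 at 9.72 CPM or less. The low clones at the lower level, low 2 and low 3, are the 2 libraries rich in Gm42418, and its part in this split was not tested. Hoxb3 was at 12, 7.71, 5.44, 11.8 and 12.1 CPM in the low and at 17.4, 2.45, 3.40, 4.93 and 2.93 CPM in the high clones. Hoxb5 was at 12.1, 5.54, 3.56, 7.53 and 13.5 CPM in the low and at 17.5, 1.25, 1.48, 4.26 and 1.90 CPM in the high clones. High 1 had the highest level of the 10 clones for these last 2 genes. Hoxb3, Hoxb4 and Hoxb5 did not pass (log2 fold changes -0.66, -1.32 and -0.68, adjusted p = 0.515, 0.379 and 0.647).

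Hoxb13, the tail-end gene of the cluster, known from the tail bud and the prostate, divided the clones in the same way as Hoxb4. It was at 15.6, 0.489, 0, 7.78 and 36.3 CPM in the low and at 34.8, 2.41, 0.454, 0.835 and 2.93 CPM in the high clones. The 4 highest clones were low 5, high 1, low 1 and low 4, the same 4 as for Hoxb4. The non-coding gene Gm27605 (chromosome 11, 96200176 to 96200311), next to Hoxb13, was at 4.79, 4.56, 5.93 and 15.5 CPM in low 1, low 4, low 5 and high 1 and at 0 in the other 6. It was chosen after its values were seen. Hoxb1, at the front end of the cluster, had 4 counts in high 1 and 0 elsewhere.

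Across the B cluster all 9 tested genes had a negative log2 fold change, with a median of -1.32, where the median of all tested genes was 0.02. These 9 share 1 locus and are not separate observations. By edgeR 1 of the 9 fell and 3 were below an unadjusted p of 0.05, where 21.6% of all tested genes were. DESeq2 called 2, where it called 11.4% of all, and limma-voom called 2, where it called 5.30%. With high 1 left out, edgeR called 8 of the 9 as lower, Hoxb2 to Hoxb9, with log2 fold changes from -1.51 for Hoxb3 to -3.17 for Hoxb9, where 3.75% of 13127 tested genes fell and 6.25% passed in either direction. With any 1 of the other 9 libraries left out edgeR called 0 or 1 Hox genes. The fit without high 1 was singled out after the values were seen. High 1 was the high clone whose Hox B sum lay among the low clones, so leaving it out favours these calls. They are not separate support for a difference between the groups. Hoxb13 did not pass either way (adjusted p = 0.877 with all libraries and 0.259 without high 1). The plot of fold changes with and without high 1 shows this by gene. Chromosome 11 as a whole moved little: the median deviation of its genes was between -0.055 and 0.123 on the log2 scale in all 10 libraries.

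**Figure D3:**
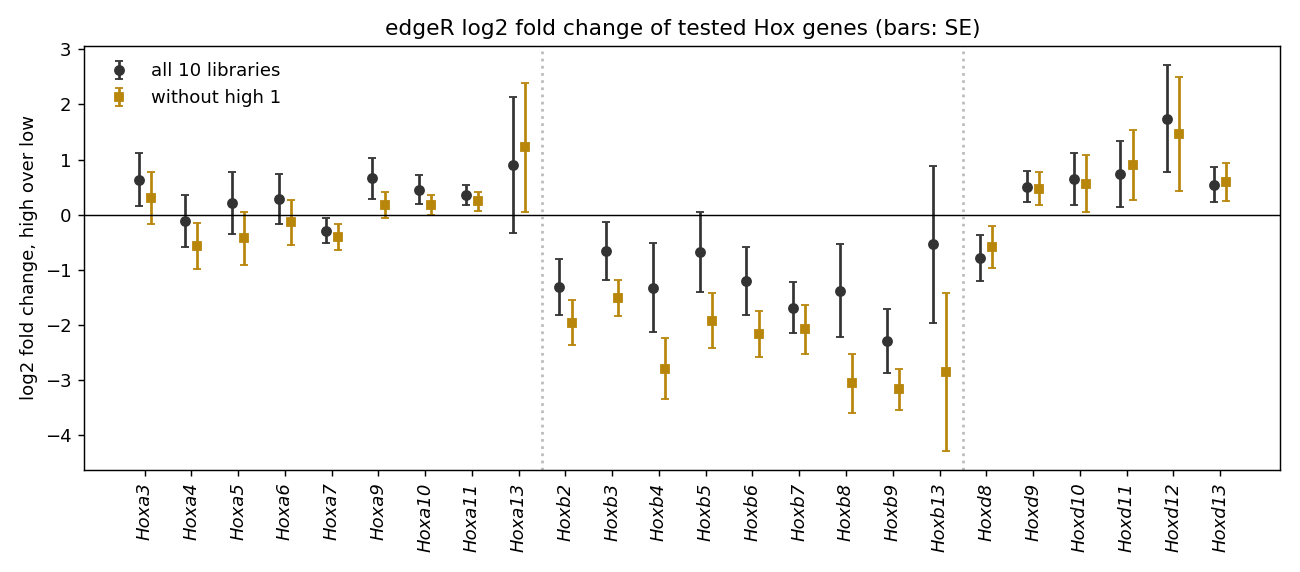
Log2 fold change, high over low (y axis), of tested Hox genes (x axis, by cluster) in edgeR, with SE as bars, from all 10 libraries (black circles) and without high 1 (ochre squares). The Hox B genes lie below 0 in both and further down without high 1, at -3.17 for Hoxb9, while the Hox A and Hox D genes lie on both sides of 0. High 1 was singled out after the values were seen.

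Of the 3 nearest protein-coding genes on each side of the B cluster, 0 of 6 passed in edgeR, 0 were below an unadjusted p of 0.05, and DESeq2 and limma-voom called 0. The shares of all tested genes were 4.86%, 21.6%, 11.4% and 5.30% in turn. The median log2 fold change of these 6 neighbours was -0.64. Calcoco2, Ttll6 and Skap1, at 4.74 CPM or less in each library, were at -1.914, -1.115 and -0.911. Atp5g1, Cbx1 and Snx11, at 13.9 CPM or more in each library, were at -0.363, -0.212 and 0.036. The antisense transcript Hoxb3os was at 10.5, 3.10, 2.25, 5.90 and 7.57 CPM in the low and at 7.16, 0.903, 0.870, 1.47 and 0.932 CPM in the high clones. It did not pass in edgeR (log2 fold change -1.38, adjusted p = 0.267) and was named after its values were seen. Its exons cover 52.9% of those of Hoxb3 and 27.3% of those of Hoxb2 on the other strand. The kit keeps strand, but how the counting used it is not stated, so reads of these 3 genes may be mixed. Hoxb5os was at 12.4 CPM in high 1 and at 0.598 CPM or less in the other 9, and was named after its values were seen. Of the non-coding genes in or beside the clusters, 5 in A, 2 in B and 2 in D were tested. In edgeR 0 passed and 0 were below an unadjusted p of 0.05, and DESeq2 and limma-voom called 0, beside the same shares of all tested genes.

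The A cluster (chromosome 6, 52155590 to 52260880) was on in every clone with its peak near the tail end. Levels per exon length, as TPM (scaled to the total of all genes in a library), were highest for Hoxa11 in each of the 10 libraries, at 89.2 TPM over all, then Hoxa10 at 62.9, Hoxa9 at 33.6 and Hoxa7 at 31.3. The genes from Hoxa3 to Hoxa6 had means over all libraries of 11.1 TPM or less, and Hoxa2 never reached 1 CPM. TPM here rest on the summed length of all annotated exons of a gene. Over the 10 libraries Hoxa3 lay between 1.19 and 5.59 CPM, Hoxa4 between 0.597 and 4.72 and Hoxa6 between 1.03 and 5.08.

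Hoxa11, which shapes the forearm, shank and kidney, had the smallest span among the Hox genes with at least 10 counts in each library. It was at 66.9, 53.4, 60.8, 53.5 and 56.0 CPM in the low and at 96.1, 72.1, 74, 82.2 and 46.1 CPM in the high clones, a 2.09-fold span over all 10. Hoxa10, a gene of the lumbar spine and uterus, was at 69.5, 57.8, 51.3, 43.5 and 58.9 CPM in the low and at 133, 74.1, 72.3, 60.2 and 45.7 CPM in the high clones. Hoxa9 was at 58.8, 48.4, 46.9, 42.9 and 41.3 CPM in the low and at 161, 45.7, 84.8, 50.1 and 34.9 CPM in the high clones. High 1 was the highest and high 5 near or at the lowest for all 3.

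Their log2 fold changes were 0.35 for Hoxa11, 0.46 for Hoxa10 and 0.66 for Hoxa9, and none passed (adjusted p = 0.293, 0.334 and 0.327 in edgeR). Hoxa7 was at 44.3, 35.5, 22.2, 30.0 and 29.9 CPM in the low and at 34.3, 22.5, 28.7, 30.0 and 16.8 CPM in the high clones, with groups that overlapped. Hoxa5, known from lung and shoulder development, was at 13, 6.25, 3.89, 4.48 and 4.08 CPM in the low and at 18.0, 4.38, 8.85, 2.43 and 3.13 CPM in the high clones. Low 1 and high 1 thus stood highest in their groups for Hoxa5.

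Of the 10 tested Hox A genes 0 passed in edgeR, beside 4.86% of all tested genes, and 0 were below an unadjusted p of 0.05, beside 21.6%. DESeq2 and limma-voom called 0 as well, beside 11.4% and 5.30% of all, and 8 had a positive log2 fold change. Genes of chromosome 6 moved with the groups. Their median deviation was -0.144 to -0.062 in the low clones and 0.446, 0.273, 0.12, -0.039 and 0.178 in high 1 to high 5 (log2 scale), and high 1 was also highest for the Hox A sum, at 461 CPM. With an offset that takes this shift out of each library, Hoxa11 was at 0.05, Hoxa10 at 0.12 and Hoxa9 at 0.30. Of 5 measured neighbours of the cluster 1 passed in edgeR and 2 were below an unadjusted p of 0.05. DESeq2 called 2 and limma-voom 0, beside the same shares of all tested genes, and the median log2 fold change was 0.40. Hibadh, a mitochondrial enzyme of valine breakdown, was the 1 that passed in edgeR. It rose by 0.81 (adjusted p = 0.0462), and this call held in 6 of 19 alternative fits. With the offset Hibadh, on the same chromosome, was at 0.50 and did not pass (adjusted p = 0.15).

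Hoxa13, the last gene of the A cluster and a gene of digits and genital tubercle, was lowest and highest in different high clones. It was at 2.28, 1.09, 2.58, 0.753 and 2.50 CPM in the low clones and at 0.0508, 0.0430, 0.113, 4.77 and 12.1 CPM in the high clones. High 1, high 2 and high 3 had 1, 1 and 3 counts, and high 4 and high 5 had more than any low clone. The low clones lay between these 2 sets, so the group means (1.84 ± 0.856 and 3.43 ± 5.28 CPM, SD, n = 5 each) do not show the split. The log2 fold change of 0.90 did not pass (SE 1.23, adjusted p = 0.738), and its sign turned in limma-voom (-1.55), with the replicate number as a block (-1.61) and without high 5 (-0.57).

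The D cluster (chromosome 2, 74668310 to 74765142) was on from Hoxd8 to Hoxd13 and off from Hoxd1 to Hoxd4, where Hoxd3 had at most 1 count and Hoxd4 at most 5 counts in a library. Hoxd13, the gene of the digits and of the gut and urogenital outlets, was the most abundant Hox RNA per length, at 196 TPM over all, and the highest Hox gene in 9 of the 10 clones. In low 1 Hoxb9 was higher. Hoxd13 was at 72.9, 168, 216, 78.0 and 105 CPM in the low and at 162, 123, 277, 194 and 177 CPM in the high clones. Low 1, low 4 and low 5 were the 3 lowest, and low 2 and low 3 lay among the high clones. Of all Hox RNA per length Hoxd13 made up 10.9% in low 1 and 43.9% in high 5.

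Hoxd10 and Hoxd11, which pattern the lower limb segments, also varied within the low group. Hoxd11 was at 6.44, 29.7, 23.5, 2.84 and 8.33 CPM in the low and at 12.4, 16.0, 46.2, 26.8 and 16.5 CPM in the high clones. Its 4 lowest clones were low 4, low 1, low 5 and high 1, the 4 that were highest for Hoxb4 and Hoxb13. Hoxd10 was at 13.2, 33.5, 29.9, 5.19 and 17.9 CPM in the low and at 38.8, 19.5, 47.8, 35.3 and 14.7 CPM in the high clones, where high 1 was not among the lowest. The plot of 6 genes by library sets these levels beside each other.

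**Figure D4:**
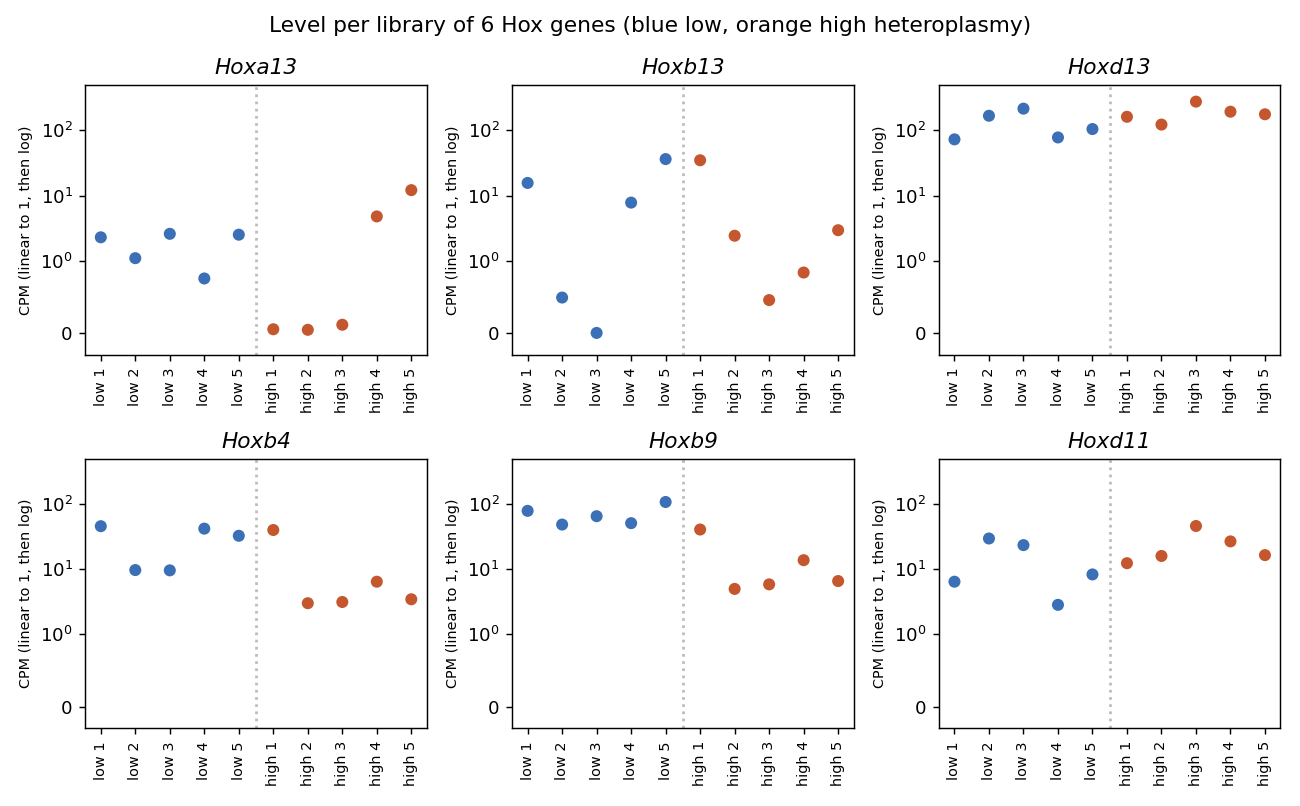
Level in CPM (y axis, linear up to 1 and log above) of Hoxa13, Hoxb13, Hoxd13, Hoxb4, Hoxb9 and Hoxd11 in each library (x axis), low in blue and high in orange, 1 point per library. Hoxd13 lies above 70 CPM in all 10, Hoxa13 is near 0 in high 1 to high 3, and low 1, low 4, low 5 and high 1 are the 4 highest for Hoxb4 and Hoxb13 and the 4 lowest for Hoxd11. This set of 4 was picked out after the values were seen.

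Hoxd12, which lies between Hoxd11 and Hoxd13, was at 1.20, 1.52, 1.88, 0 and 3.81 CPM in the low and at 9.55, 10.1, 5.94, 0.597 and 1.86 CPM in the high clones. High 1 to high 3, in which Hoxa13 was nearly silent, had the 3 highest levels of Hoxd12, and low 4 had no count. Hoxd8 was at 9.68, 10.5, 13.2, 8.20 and 8.76 CPM in the low and at 2.39, 5.85, 3.63, 13.2 and 4.06 CPM in the high clones, so high 4 stood with the low clones and the other 4 below all of them. Hoxd8 did not pass in edgeR with all libraries (log2 fold change -0.79, adjusted p = 0.301). It passed in 1 of 19 alternative fits, the one without high 4 (-1.34, adjusted p = 0.0324). Leaving out the high clone at the low level favours that call, which is not separate support. Hoxd9 was at 10.2, 10.4, 10.5, 8.16 and 9.25 CPM in the low and at 15.3, 7.82, 14, 22.9 and 9.02 CPM in the high clones.

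Of the 6 tested Hox D genes 0 passed in edgeR (4.86% of all tested genes) and 0 were below an unadjusted p of 0.05 (21.6% of all). DESeq2 (11.4% of all) and limma-voom (5.30% of all) called 0. Their log2 fold changes were 0.54 for Hoxd13, 1.74 for Hoxd12, 0.74 for Hoxd11, 0.65 for Hoxd10, 0.51 for Hoxd9 and -0.79 for Hoxd8. Without low 2 and low 3 together those of Hoxd13, Hoxd11 and Hoxd10 were 1.15, 2.03 and 1.39, and none passed (adjusted p = 0.098, 0.12 and 0.212). Of the 6 nearest protein-coding neighbours, 0 passed in edgeR, 0 were below an unadjusted p of 0.05, and DESeq2 and limma-voom called 0. Evx2, a homeobox gene at the Hoxd13 end of the cluster, was at 0.171, 5.16, 6.14, 1.05 and 2.34 CPM in the low and at 5.89, 3.61, 12, 8.47 and 5.72 CPM in the high clones. Like Hoxd13 it was lowest in low 1, low 4 and low 5, but it was named after its values were seen. Evx2 did not pass in edgeR (log2 fold change 1.26, SE 0.70, adjusted p = 0.326).

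The C cluster (chromosome 15, 102921103 to 103036852) was silent. Its 8 measured genes had 5, 7, 0, 3 and 39 counts in all in low 1 to low 5 and 4, 1, 1, 12 and 0 in high 1 to high 5. No gene of it reached 1 CPM in any clone. The most any gene had was 15 counts of Hoxc10, a gene of the hindlimb and lumbar spine, and 11 of Hoxc9, both in low 5, and 12 of Hoxc13, a gene of hair and nails, in high 4. Hoxc4 and Hoxc8 had 1 count each, both in low 5, and Hoxc5, Hoxc6 and Hoxc12 had at most 3, 7 and 1 counts in a library. Hoxd1 had 0 counts in all 10 libraries, which allows at most 0.0134 CPM (3 counts over all libraries, counting error only). The 6 nearest protein-coding neighbours of the C cluster were on, with summed levels between 800 and 1120 CPM. Of these 0 passed in edgeR, 1 was below an unadjusted p of 0.05, and DESeq2 and limma-voom called 0. The shares of all tested genes were 4.86%, 21.6%, 11.4% and 5.30% in turn.

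The balance of the clusters was also set side by side. Of all Hox RNA per length, cluster B made up 48.7%, 25.3%, 25.9%, 48.5% and 52.4% in low 1 to low 5 and 30.8%, 7.15%, 5.15%, 12.9% and 9.89% in high 1 to high 5. Genes numbered 9 to 13 made up 53.3%, 72.3%, 76.8%, 52.2% and 61.8% in the low and 68.6%, 84.1%, 87.3%, 81.4% and 84.6% in the high clones. High 2 to high 5 were above every low clone in this share, and high 1 was below low 2 and low 3. This division was drawn after the values were seen. Both shares are parts of the same total and both hold Hox B genes, so they are not separate observations. The ratio of the paralogs Hoxb9 to Hoxa9 in CPM was 1.00 to 2.61 in the low and 0.0692 to 0.276 in the high clones, and was chosen after the values were seen.

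Over the 29 Hox genes with at least 10 counts in some library, 2 clones differed on average by between 0.39 and 1.88 on the log2 scale. Low 2 and low 3 were the closest pair, at 0.39, then high 2 and high 3, at 0.61. High 1 was nearer to low 1 (0.95) than to any other high clone (1.39 or more). High 4 was nearer to low 2 (0.81) than to high 5 (0.98). The median was 0.97 within the low group, 1.21 within the high group and 1.40 between the groups. Within a group the tested Hox genes had a median SD of 0.58 in the low and 0.97 in the high clones (log2 CPM), against 0.31 and 0.40 over all tested genes.

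Hox proteins bind DNA together with TALE homeodomain partners of the Pbx, Meis and Pknox families. Of 9 tested partners 2 rose and 0 fell in edgeR, where 1.99% of all tested genes rose and 2.87% fell. Pknox2 was at 2.34, 5.11, 4.13, 1.63 and 1.42 CPM in the low and at 14.9, 27.3, 8.63, 8.07 and 6.62 CPM in the high clones, and the groups did not overlap. The mean of Pknox2 rose from 2.92 ± 1.62 to 13.1 ± 8.54 CPM (SD, n = 5), by 2.16 on the log2 scale (SE 0.49, adjusted p = 0.0337), and this call held in 11 of 19 alternative fits.

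Polycomb proteins keep Hox clusters silent and Trithorax proteins keep them on. Of 16 Polycomb genes 0 passed in edgeR, 1 was below an unadjusted p of 0.05, and DESeq2 and limma-voom called 0, beside 4.86%, 21.6%, 11.4% and 5.30% of all tested genes. The median log2 fold change of these 16 was -0.001. Cbx7 was the 1 below an unadjusted p of 0.05 (log2 fold change 0.69, unadjusted p = 0.0485, adjusted p = 0.228 in edgeR). Ezh2, the H3K27 methyltransferase, was at 76.0 to 90.3 CPM in the low and at 67.9 to 98.8 CPM in the high clones (log2 fold change -0.024). Of 11 Trithorax and demethylase genes 1 fell, Ash2l, a core subunit of the MLL complexes, by 0.83 on the log2 scale (SE 0.14, adjusted p = 0.0136), where 2.87% of all tested genes fell. Ash2l lies on chromosome 8, and with the offset per chromosome it was at -0.28 (adjusted p = 0.217). The call held in 17 of 19 alternative fits.

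Retinoic acid switches on Hox genes from the front end of each cluster. Of 13 tested genes of its pathway 2 rose and 1 fell in edgeR, beside 1.99% and 2.87% of all tested genes. The retinoid receptor gene Rxra rose by 1.43 on the log2 scale (SE 0.24, adjusted p = 0.0135), with 28.4 to 55.6 CPM in the low and 63.2 to 137 CPM in the high clones, and was called in all 19 alternative fits. Dhrs3, which turns retinaldehyde back to retinol, rose by 3.63 (adjusted p = 0.015), and Crabp1, a retinoic acid carrier, fell by 4.50 (adjusted p = 0.0174), calls that held in 18 of 19 and 17 of 18 alternative fits. Of the front-end Hox genes, Hoxb2, Hoxb3 and Hoxa3 did not pass (adjusted p = 0.161, 0.515 and 0.491 in edgeR). A link between the retinoic acid genes and the Hox levels was not tested. Of the Cdx and axial signal genes Cdx2, Fgf8 and Wnt3a had 0 counts in all libraries. In edgeR 0 of the 4 tested passed and 1 was below an unadjusted p of 0.05, and DESeq2 and limma-voom called 0. The shares of all tested genes were 4.86%, 21.6%, 11.4% and 5.30% in turn.

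Of the genes that mark limb and trunk position, 0 of 10 tested passed in edgeR, 3 were below an unadjusted p of 0.05, DESeq2 called 0 and limma-voom 1. Over all tested genes these shares were 4.86%, 21.6%, 11.4% and 5.30%. Pitx1, a hindlimb gene, was at 24.0, 47.9, 67.1, 33.1 and 19.1 CPM in the low and at 41.4, 25.1, 76.6, 97.8 and 52.6 CPM in the high clones. Tbx4, also of the hindlimb, was at 0, 11.7, 0.235, 2.09 and 12.5 CPM in the low and at 45.7, 5.76, 67.9, 4.65 and 44.8 CPM in the high clones, with groups that overlapped (log2 fold change 2.67, adjusted p = 0.223). Tbx15, of trunk and limb mesenchyme, was at 110 CPM or more in each low and 107 CPM or more in each high clone. Gli3 (0.47, adjusted p = 0.128) and Prrx2 (1.24, 0.176) did not pass. Pitx1 and Tbx15 were named after their values were seen. Of 8 tested cranial mesenchyme genes 1 rose and 1 fell, beside the same 1.99% and 2.87% of all tested genes. Dlx2 rose by 2.42 on the log2 scale (adjusted p = 0.048), a call that held in 6 of 19 alternative fits.

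Of the markers of fibroblasts, the labelled cell type, Col1a1 was at 3310 CPM or more and Vim at 4020 CPM or more in each library. However, Postn had at most 3 counts in a library. Thy1 was at most 0.326 CPM in the low clones and at 56.8, 11.3, 3.25, 0 and 0.399 CPM in high 1 to high 5. Dcn lay between 0.490 and 3.53 CPM in the low and between 0 and 0.610 CPM in the high clones, and Col1a2 between 72.9 and 886 CPM in the low and between 1.98 and 614 CPM in the high clones. Of the 8 tested fibroblast markers 0 passed in edgeR, 1 was below an unadjusted p of 0.05, and DESeq2 and limma-voom called 1 each. The shares of all tested genes were 4.86%, 21.6%, 11.4% and 5.30% in turn. Of the markers of other cell types, Ptprc, Cdh5, Tie1, Sox10, Elavl4, Esrp1, Myog and Actc1 had 0 counts in all libraries. The 10 epithelial markers summed to 454 to 672 CPM in the low and 113 to 510 CPM in the high clones, mostly Krt19 and, in some high clones, Krt18. Of the 4 tested epithelial markers 1 rose and 0 fell, where 1.99% and 2.87% of all tested genes did, and the median log2 fold change was -1.38. Krt18 rose by 7.95 on the log2 scale (adjusted p = 0.00895), a call lost in limma-voom and without low 2 and low 3 and held in 17 of 19 alternative fits. The other 3 had negative log2 fold changes and did not pass: Krt19 at -1.39 (adjusted p = 0.0509, all high below all low clones), Cdh1 at -2.73 (0.0926) and Krt8 at -1.36 (0.0926). Of the 3 tested neural markers 0 rose and 1 fell in edgeR, beside the same 1.99% and 2.87% of all tested genes. This was Tubb3, which fell by 1.55 (adjusted p = 0.0378), a call that held in 9 of 19 alternative fits. Tubb3 lies on chromosome 8, and with the offset per chromosome it was at -1.02 and did not pass (adjusted p = 0.139 in edgeR). The sums were 35.4 to 94.3 and 40.5 to 183 CPM for the 9 neural, 5.52 to 16.2 and 15.2 to 24.5 CPM for the 7 measured endothelial, 12.6 to 26.5 and 12.1 to 90.2 CPM for the 6 measured blood and 2.25 to 11.9 and 4.03 to 24.5 CPM for the 7 measured muscle markers, low and high in turn. The endothelial sum was mostly Egfl7 (3.51 to 15.4 CPM in the low and 14.7 to 24.2 CPM in the high clones). The blood sum was mostly Cd68 (12.3 to 26 and 11.7 to 90 CPM). Map2 and Tubb3 gave most of the neural sum, and Des and, in low 5, Pax3 most of the muscle sum. The part of these cell type markers in the Hox levels was not tested.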

How the data were processed

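Reads per Ensembl gene were deposited by the authors as raw counts, with a column for each of the 10 libraries. Per the submitters' processing notes, STAR 2.7.8a, DESeq2 1.36.0, R 4.2.1 and the build GRCm38 were used, in roles that are not listed. Which program counted, whether it used strand, and from which annotation, is not stated. Counting can drop or share reads where genes overlap: 10 Hox genes share exon bases with a gene on the other strand and 9 with a gene on the same strand. Symbols came from GENCODE M21 (GRCm38), which left 195 identifiers unnamed (at most 0.0701% of counts). The authors' normalized table was not used.

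High was compared with low in edgeR 4.0.16 (R 4.3.3) over all genes that passed the default filter, with TMM scaling, robust quasi-likelihood F-tests (two-sided), and Benjamini-Hochberg adjustment over all tested genes at 0.05. SE is the log2 fold change over the root of F. CPM use TMM-scaled library sizes, and log2 CPM a prior count of 2. TPM use the union of annotated exons. For a chromosome's deviation each gene with mean log2 CPM over 3 was centred on its own median, and the median over the chromosome was taken. Scores over the Hox genes were given no test. Results were recomputed with RLE or upper-quartile scaling, no filter, at least 1 CPM in 5 libraries, the replicate block, DESeq2 1.42.0, limma-voom (limma 3.58.1), an offset per chromosome, each library left out, and low 2 and low 3 left out together, the 2 libraries rich in the ribosomal RNA-like Gm42418 (8020 CPM or more, against 1620 CPM or less in the rest). A threshold of 0.1 was also tried. Non-coding genes were taken within 5000 bases of a cluster, and neighbours as the 3 nearest protein-coding genes on each side. The Hox genes are accounted for, with values in every library for those called or with 10 CPM in some library, and called members of the other lists are named, except a few genes whose results are not reported here. The Hox genes, the lists and the alternatives were chosen with earlier results of these data known. The code was tested on simulated data. No 2 libraries agreed within sampling noise. Figures were drawn with matplotlib 3.10.9.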

Additional observations from a re-analysis of the deposited data

How the results depend on the processing

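The count of Hox genes called, 1 with the settings of the report, was 0 with upper-quartile scaling, without a filter, with the filter at 1 CPM, with the offset per chromosome and without low 2 and low 3. It was 2 with DESeq2, with limma-voom and at a threshold of 0.1. With 1 library left out it ran from 0 to 8, and the 8 came without high 1. The count over all genes, 630 (258 higher and 372 lower), was 1475 with DESeq2, 1276 at a threshold of 0.1, 164 with the offset per chromosome (85 higher and 79 lower), 56 without low 2 and low 3, and 232 to 821 with 1 library left out. The cause of these moves was not tested. With the replicate block 3 Hox genes (Hoxb2, Hoxb7 and Hoxb9) and 577 genes in all were called. The numbers are not said to pair the clones: same-numbered clones had correlated deviations of 0.455, -0.053, 0.033, 0.074 and 0.16, and 2 of 5 matched their own number best.

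The log2 fold change changed sign for genes that did not pass. With the block Hoxa5 was at -0.027 and Hoxa13 at -1.61, with limma-voom Hoxa5 was at -0.051, Hoxa13 at -1.55 and Hoxb13 at 0.15, and with the offset Hoxa5 was at -0.18 and Hoxa6 at -0.069. With 1 library left out the range was -0.57 to 0.13 for Hoxa4, -0.43 to 0.652 for Hoxa5, -0.141 to 0.485 for Hoxa6, -0.57 to 1.23 for Hoxa13 and -2.85 to 0.47 for Hoxb13. Hoxb2 to Hoxb9 kept a negative and Hoxd9 to Hoxd13 a positive sign in all 19 alternative fits. The median number of Hox genes on, 24 in both groups, was 25 and 25 at 0.3 CPM and 19 and 17 at 3 CPM. Depth limits the Hox C genes, at most 15 counts each in a library.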
